A study of Mus musculus with 6 samples.

Results

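The transcriptome described here is that of whole mouse kidney in 3 control libraries, out of 6 libraries of bulk RNA sequencing. The libraries were taken by label: the controls carry floxed alleles of Ccnb1 without Cre (Ccnb1f/f), and the other 3 libraries carry the same alleles together with a Cdh16-Cre transgene (Ccnb1f/f;Cdh16-Cre). Ccnb1 encodes cyclin B1, which starts mitosis with Cdk1, and Cdh16 encodes a cadherin of tubular epithelium whose promoter drives the Cre. Floxed alleles are thus shared by all 6 libraries, and kidneys with unmodified Ccnb1 were not analysed here. No level or difference below is a comparison with the Cre libraries. The sources used here give no age, sex or strain. Nor do the labels say that the 3 controls are separate animals, so the spread between them may be partly technical. The tissue label is kidney, although the extraction text also speaks of cultured cells.

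The kidney filters blood plasma at the glomerulus, and the nephron that follows takes back most of the filtrate. The proximal tubule reclaims glucose, phosphate, amino acids and bicarbonate, and runs on a basolateral sodium pump fed by mitochondria that burn mainly fatty acids. The thick ascending limb and distal convoluted tubule take up salt without water, and the collecting duct sets the final water, sodium, potassium and acid content of the urine.

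Levels of different genes are given as FPKM (fragments per kilobase of transcript and per unit of library depth), which is per transcript length, summed over the transcripts of a gene symbol. Differences between the 3 libraries are given as CPM (counts relative to library depth after TMM scaling), which is not per length and compares libraries for the same gene. A value after ± is the SD over the 3 control libraries (n = 3). Values listed in a row are in the order control 1, control 2, control 3. In bulk tissue, fewer cells of a type and less RNA per cell cannot be told apart, and this holds for every marker level below.

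The control libraries held 17105650, 18597655 and 17677134 estimated counts, so that 3 counts correspond to between 0.161 and 0.175 CPM. Of 51804 gene symbols, 22562 were above 0 in at least 1 control library and 11986 were at 1 FPKM or more in all 3. All 3 libraries carried Y-linked transcripts: Eif2s3y, a translation initiation factor gene, stood at 29.2, 31.2 and 26.2 FPKM. Xist, the RNA of the inactive X chromosome, stood at 0.02 FPKM or less. Ccnb1 was rare in these kidneys, with 11, 17 and 7 counts, whereas Cdh16 held 19588, 19660 and 19296 counts.

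A small number of genes filled much of the control transcriptome, and most of them belong to the proximal tubule or to mitochondria. The most abundant gene of each library took 2.72% to 4.60% of all FPKM (3.90% ± 1.03). The first 10 genes took 13.5% ± 0.781, the first 100 took 29.7% ± 1.79 and the first 500 took 50.9% ± 2.01. Protein-coding genes made up 97.3% ± 0.0648 of FPKM. Long intergenic RNAs made up 0.450% ± 0.0403, led by the nuclear RNA Malat1 at 341, 417 and 355 FPKM.

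Kap, the androgen-regulated protein of proximal tubule, was the most abundant gene in all 3 libraries at 22397, 13100.2 and 22759 FPKM. Control 2 stood below the others, at little more than its own mt-Cytb. The ratio of Kap to mt-Cytb, the cytochrome b of complex III, was 1.71, 1.01 and 1.93. The same table lists Kap at 0 in all 3 Cre libraries. Whether that 0 is a failed estimate cannot be told from the table, and no comparison is drawn from it.

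The next ranks were transcripts of the mitochondrial genome, which together made up 7.59% ± 0.598 of FPKM. mt-Cytb stood at 13068.5, 12957 and 11769.8 FPKM. Genes of complex I followed, with mt-Nd1 at 7059 ± 616 FPKM, mt-Nd2 at 5931 ± 305, mt-Nd5 at 4769 ± 415 and mt-Nd4 at 4248 ± 400.2. These mitochondrial genes differed little between the libraries, by at most 1.22-fold in CPM. The ranking is incomplete, however: mt-Co1, mt-Co3, mt-Atp6 and mt-Atp8, which code for subunits of complex IV and of the ATP synthase, are listed at 0 in all 6 libraries, as are Gpx3, the plasma glutathione peroxidase made by the kidney, and Slc26a6, an anion exchanger.

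Behind them came iron storage and translation. Fth1 and Ftl1, the heavy and light chains of ferritin, stood at 4392, 3160.0 and 3894 FPKM and at 2961, 2250.5 and 2910.0 FPKM, and control 2 was the lowest for both. Eef1a1, the elongation factor that brings aminoacyl-tRNA to the ribosome, stood at 3441 ± 317 FPKM.

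Enzymes and transporters of the proximal tubule filled much of the rest of the first 30 ranks. Acsm2, an acyl-CoA synthetase of medium-chain acids, stood at 3025, 999.7 and 2925 FPKM, and Cyp4b1, a cytochrome P450, at 2516, 1229.9 and 2204 FPKM. Both were lowest in control 2. Miox, which opens the ring of myo-inositol, stood at 2551, 1614 and 1244 FPKM, with control 1 the highest. Slc34a1, the luminal phosphate transporter, stood at 1874 ± 288 FPKM and Slc27a2, an acyl-CoA synthetase and fatty acid transporter, at 1741 ± 97.9 FPKM. Umod, the uromodulin of the thick ascending limb, was the most abundant gene of the distal nephron at 2038, 2093 and 1875 FPKM. Klk1, the tissue kallikrein of the connecting tubule, followed at 1208 ± 155 FPKM.

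**Figure D1:**
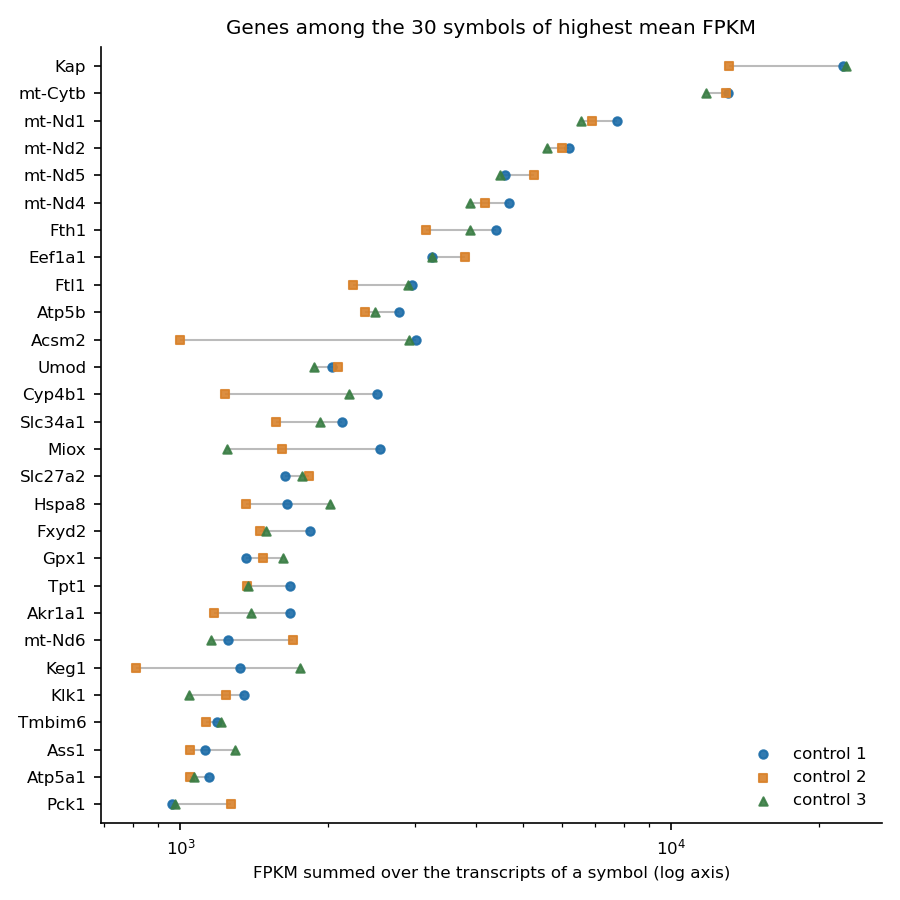
FPKM on a log axis of genes among the 30 symbols with the highest mean over the control libraries, 1 row per gene and 1 marker per library, joined by a line from lowest to highest. Most rows are short, while Kap, Acsm2, Cyp4b1 and Keg1 show control 2 (square) well to the left and Miox shows control 1 (circle) to the right.

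By gene family, solute carriers (Slc and Slco symbols) took 3.50% ± 0.0314 of FPKM, from 257 genes at 1 FPKM or more in all 3 libraries out of 394 symbols. Nuclear genes of the respiratory chain and ATP synthase took 3.97% ± 0.218, and ribosomal protein genes 4.15% ± 0.312. Cytochromes P450 took 1.11% ± 0.0498, ferritins 1.31% ± 0.166 and the sodium pump with its FXYD subunits 0.833% ± 0.0627. The vacuolar proton pump took 0.431% ± 0.0312 and aquaporins 0.181% ± 0.035. The least even of these families were the Acsm enzymes, at 0.720%, 0.249% and 0.701%, and the immunoglobulins, at 0.171%, 0.114% and 0.436% of FPKM. Control 2 was the lowest library for both families, and control 3 was the highest for immunoglobulins.

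Markers of every nephron segment were present, and those of the proximal tubule were by far the most abundant. A sum over a list depends on which genes are in it and is not a share of cells. The 26 proximal tubule markers, all at 1 FPKM or more in every library, summed to 44220.0, 30188 and 43229 FPKM, which is 7.88% ± 1.4 of the total. Kap made up much of that sum and of its spread between libraries. Among markers of the early convoluted part (S1), Slc34a1 led. Slc5a2, the sodium-glucose cotransporter of this part, stood at 202, 157 and 201 FPKM, and Slc5a12, a lactate transporter, at 89.9, 180 and 126 FPKM, so these S1 genes did not share an order of libraries. The 10 S1 markers summed to 2792 ± 174 FPKM.

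Late convoluted (S2) markers summed to 3249 ± 447 FPKM over 6 genes. They included Fxyd2, the gamma subunit of the sodium pump, at 1832.5, 1454 and 1494 FPKM, and Slc22a6, the organic anion transporter OAT1, at 437, 240 and 327 FPKM. Straight part (S3) markers summed to 1879.9 ± 269.5 FPKM over 12 genes. Slc7a13, a transporter of acidic amino acids and cystine, stood at 372, 366 and 503 FPKM. Acsm3, another acyl-CoA synthetase, stood at 531, 54.8 and 359 FPKM, and control 2 was far below both others.

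The loop of Henle and the distal nephron held less than the proximal tubule list as a whole. The 12 thick ascending limb markers summed to 2962, 3419 and 2897 FPKM (0.624% ± 0.0739 of FPKM), most of it Umod. Egf, the precursor of epidermal growth factor, stood at 405, 571 and 442 FPKM. Slc12a1, the cotransporter NKCC2 that furosemide blocks, stood at 219, 368 and 259 FPKM, with control 2 the highest. The 12 thin limb markers summed to 1002 ± 97.1 FPKM, of which the water channel gene Aqp1, which the proximal tubule also expresses, held 557, 630.0 and 548. Distal convoluted tubule markers summed to 895 ± 118 FPKM over 12 genes, led by Slc12a3, the thiazide-sensitive cotransporter NCC, at 325, 385 and 384 FPKM. The 8 connecting tubule markers summed to 1809 ± 213 FPKM. After Klk1 their most abundant members were S100g and Calb1, the calbindins that carry calcium across the cell, at 255, 369 and 236 FPKM and at 122, 166 and 121 FPKM.

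In the collecting duct, 14 principal cell markers summed to 416, 671 and 438 FPKM, with control 2 above both others. Aqp2, the vasopressin-regulated water channel, stood at 139.6, 258 and 154 FPKM, and Aqp3, its basolateral partner, at 58.1, 83.1 and 63.3 FPKM. Scnn1a, the alpha subunit of the epithelial sodium channel, stood at 32.9, 45.2 and 32.6 FPKM, and was 2.46 ± 0.114 times the beta subunit Scnn1b. The 16 intercalated cell markers summed to 368, 452 and 337 FPKM. Among them Car12, a carbonic anhydrase, stood at 135, 111 and 103 FPKM, and Atp6v1b1, a subunit of the proton pump, at 52.0, 64.2 and 49.9 FPKM. Slc26a4, the chloride-bicarbonate exchanger pendrin of type B cells, stood at 22.0, 34.6 and 24.4 FPKM.

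Endothelial markers were at the level of the intercalated cell list, and podocyte and stromal markers were lower. The 13 podocyte markers summed to 168, 231 and 177 FPKM, with Podxl, the podocalyxin of the cell surface, at 40.3, 55.1 and 38.0 FPKM. Endothelial markers summed to 386 ± 50.2 FPKM over 17 genes, smooth muscle markers to 88.8 ± 4.84 over 9, fibroblast markers to 119.6 ± 15.5 over 12, and mesangial, pericyte and renin cell markers to 56.4 ± 8.62 over 12. Ren1, which encodes renin, stood at 13.2, 16.01 and 11.9 FPKM. Macula densa markers were low, at a sum of 7.7 ± 0.538 FPKM, with 2 of 6 at 1 FPKM or more in all 3 libraries.

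Blood, immune and neighbouring tissue markers were at very different levels, and some of their sums differed widely between the libraries. Macrophage markers summed to 214, 415 and 255 FPKM, most of it Cd74, the invariant chain of class II molecules, at 127, 309 and 158 FPKM. Lyz2 and Csf1r, lysozyme and a growth factor receptor of macrophages, stood at 15.6, 14.8 and 20.1 FPKM and at 14.1, 16.96 and 16.6 FPKM. Neutrophil markers summed to 3.96 ± 1.6 FPKM and those of T and natural killer cells to 7.81 ± 0.395 FPKM. B and plasma cell markers summed to 334, 176 and 784 FPKM, nearly all from Igkc, the kappa light chain, at 273, 143 and 622 FPKM, and Jchain, the joining chain of secreted antibody, at 53.9, 26.4 and 150.3 FPKM. Erythroid markers summed to 373, 320 and 241 FPKM, with the beta globin Hbb-bs at 178, 154 and 107 FPKM. Control 1 held the most globin and control 3 the most immunoglobulin.

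Adrenal and skeletal muscle markers were near 0, at 1.12 ± 0.312 FPKM for 12 adrenal genes, 7 of them listed at 0, and at 1.38 ± 0.437 FPKM for 6 muscle genes. Urothelial markers summed to 20.3, 21.2 and 10.8 FPKM. Adipocyte markers summed to 530.4, 204 and 487 FPKM, most of it from Lpl, the lipoprotein lipase, at 425, 147 and 432 FPKM. Lpl is not confined to fat cells, and defining fat genes were much lower: Adipoq, adiponectin, stood at 5.23, 0.18 and 0.83 FPKM and Cfd, adipsin, at 24.4, 2.23 and 3.35 FPKM. Control 1 was the highest library for both of these genes. Markers of liver and pancreas summed to 183, 43.6 and 123 FPKM, from Ttr, the thyroxine carrier, and Cela1, an elastase, while 6 of the 11 were listed at 0 and Alb, albumin, stood at 2.04, 6.61 and 2.98 FPKM.

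**Figure D2:**
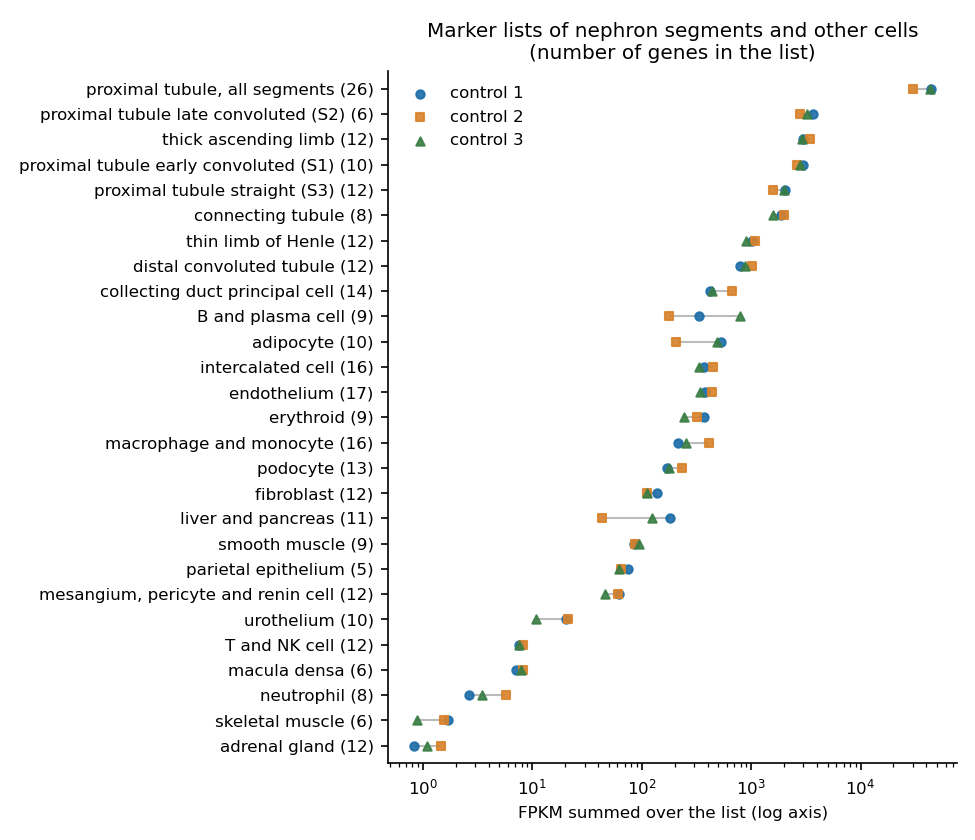
Summed FPKM on a log axis of each marker list, with 1 marker per control library and the number of genes in the list in brackets. The proximal tubule list lies about an order above any other, the libraries lie close together for most kidney segments, and the lists of B and plasma cells, adipocytes and liver and pancreas spread the most.

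Among solute carriers, transporters of the proximal tubule and of the inner mitochondrial membrane led. At the luminal border, Slc34a1 was 55.8 ± 11.1 times as abundant as Slc34a3, the other renal phosphate cotransporter of this family, and Slc5a2 was 9.73 ± 2.26 times as abundant as Slc5a1, the glucose cotransporter of the late proximal tubule. Slc3a1, the heavy subunit of cystine transport, stood at 330.3, 384 and 359 FPKM, and Slc6a18, a neutral amino acid transporter, at 225, 341 and 225 FPKM. Slc13a3 and Slc13a1, cotransporters of dicarboxylates and of sulphate, stood at 262 ± 31.2 FPKM and at 149.8 ± 13.1 FPKM. The 22 listed genes of luminal entry together made up 0.823% ± 0.00439 of FPKM. None of the 22 genes of luminal entry differed by 2-fold between the libraries, where 8.49% of all tested genes did, so that few or none would be called in a list of this size at that share.

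At the basolateral side, Atp1b1, the beta subunit of the sodium pump, stood at 893, 1124 and 904 FPKM. Slc4a4, the bicarbonate exit of the proximal tubule, stood at 195, 283 and 263 FPKM. Organic ion transport was less even. Slc22a18, Slc17a1, Slc47a1 and Slc22a8, carriers of organic anions, urate or cations, had means from 149 to 322 FPKM and differed by 1.30-fold to 1.66-fold in CPM. Slc17a3, an exporter of urate and organic anions, stood at 397, 193 and 323 FPKM and differed by 2.18-fold in CPM, the only one of the 25 most abundant Slc genes past 2-fold.

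Carriers of the mitochondrial membrane formed another abundant group. Slc25a5 and Slc25a4, which exchange ADP for ATP, stood at 794 ± 36.5 FPKM and 150.5 ± 5.6 FPKM. Slc25a3, the phosphate carrier, stood at 599 ± 37.1 FPKM. Slc25a39 and Slc25a10, carriers of glutathione and of dicarboxylates, stood at 344 ± 46.9 and 255 ± 35.4 FPKM. Slc37a4, which moves glucose 6-phosphate into the endoplasmic reticulum, stood at 149.4 ± 14.4 FPKM. Slc9a3r1, a scaffold protein named after an exchanger and no carrier itself, stood at 222 ± 23.5 FPKM.

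In the distal nephron, Slc12a1 was 0.674, 0.957 and 0.673 times as abundant as Slc12a3, so that the 2 diuretic targets were closest in control 2. Kcnj15 and Kcnj16, potassium channel subunits, stood at 263, 325 and 282 FPKM and at 174, 232 and 197 FPKM. None of the 15 genes of distal salt transport differed by 2-fold, a count near the 8.49% of all tested genes for a list of this size. Among water channels, Aqp1 was 3.33 ± 0.798 times Aqp2. Aqp4, a basolateral water channel of principal cells, was uneven at 10.5, 40.8 and 12.4 FPKM.

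**Figure D3:**
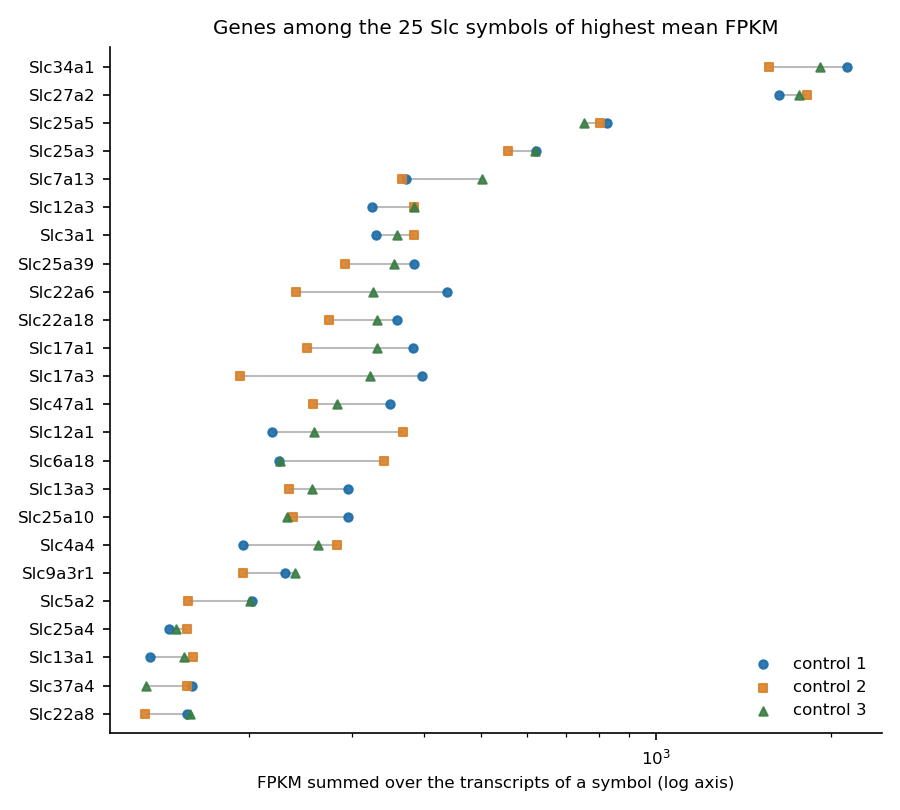
FPKM on a log axis of genes among the 25 Slc symbols of highest mean, with 1 marker per control library joined by a line from lowest to highest. Slc34a1 and Slc27a2 stand apart at the top, and control 2 (square) is the lowest library for most organic ion carriers and the highest for Slc12a1 and Slc6a18.

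Metabolic genes were abundant and mostly even. Gluconeogenesis took 1.51% ± 0.033 of FPKM over 12 genes. Pck1, which makes phosphoenolpyruvate in the cytosol, stood at 963, 1265 and 976 FPKM and was 217 ± 17.3 times its mitochondrial form Pck2. Fbp1, the bisphosphatase of this pathway, stood at 856, 702 and 817 FPKM. Ldhd, a lactate dehydrogenase for the D form, and G6pc, which releases free glucose, were the 2 members past 2-fold, at 2141, 902 and 1931 CPM and at 802, 498 and 349 CPM. Glycolysis took 0.753% ± 0.0577 over 16 genes, none past 2-fold, with the heart-type lactate dehydrogenase Ldhb at 978, 892 and 888 FPKM. At the 8.49% of all tested genes, lists of these sizes would hold few such members or none.

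Fatty acid oxidation genes summed to 4214 ± 159.5 FPKM over 27 members. Acadm, the first enzyme of the mitochondrial route for medium chains, stood at 512, 453 and 555 FPKM. Of the 27, 4 were past 2-fold, where 8.49% of all tested genes were. These 4 included the hydroxylase Cyp4a14 at 11.9, 281 and 17.8 CPM, highest in control 2. Antioxidant genes took 1.04% ± 0.027 of FPKM, with the glutathione peroxidase Gpx1 at 1360, 1473 and 1616 FPKM and the superoxide dismutase Sod1 at 891, 641 and 766 FPKM. Cholesterol synthesis genes summed to 783 ± 83.7 FPKM.

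The 3 libraries were alike for most genes. Over 12723 genes at a mean of 2 CPM or more, the median ratio of the highest to the lowest library was 1.29. In 1080 genes, or 8.49%, that ratio was at least 2. The count was 676 (5.29%) without control 1, 389 (3.1%) without control 2 and 626 (4.9%) without control 3. Leaving out the library that differs most in a list lowers that list's count by construction. Such counts below describe where the spread lies and are no further support. The pair of control 1 and control 3 was the most alike, with a Pearson correlation of log2 CPM across genes of 0.971, against 0.959 for controls 1 and 2 and 0.954 for controls 2 and 3; genes are not independent replicates. The common biological coefficient of variation, edgeR's estimate of spread beyond counting error, was 0.217, and 0.180 without control 2. No pair was 1 library deposited more than once, since their counts differed by 23.9 to 54.5 times counting error (chi-square over degrees of freedom).

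A gene was called apart where 1 library was at least 2-fold above or at least 2-fold below both others. Control 1 was above for 43 genes (0.338%) and below for 63 (0.495%). Control 2 was above for 159 genes (1.25%) and below for 124 (0.975%). Control 3 was above for 102 genes (0.802%) and below for 97 (0.762%). These calls describe 3 libraries without a test, since a split of 1 library against 2 comes from the data themselves.

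Spread was unequal among gene groups. None of the 12 thick ascending limb markers, 12 distal convoluted tubule markers or 8 connecting tubule markers reached 2-fold. Nor did any of the 10 genes of proximal endocytosis, where the receptor Lrp2 (megalin) stood at 191, 192 and 196 FPKM, or of the 11 tested genes of ammonia and bicarbonate handling. Of 34 nuclear genes of oxidative phosphorylation, 1 reached 2-fold. At the 8.49% of all tested genes, lists of these sizes would hold few such members or none, so these low counts do not set the lists apart. By contrast, 13 of 13 antigen presentation genes reached 2-fold, as did 22 of 27 immediate early genes. So did 11 of 16 genes listed as higher in male kidney, 11 of 20 clock genes and 10 of 20 heat shock chaperones. The median ratios of these lists, in that order, were 2.61, 4.06, 2.68, 2.24 and 2.03, against 1.29 over all tested genes.

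**Figure D4:**
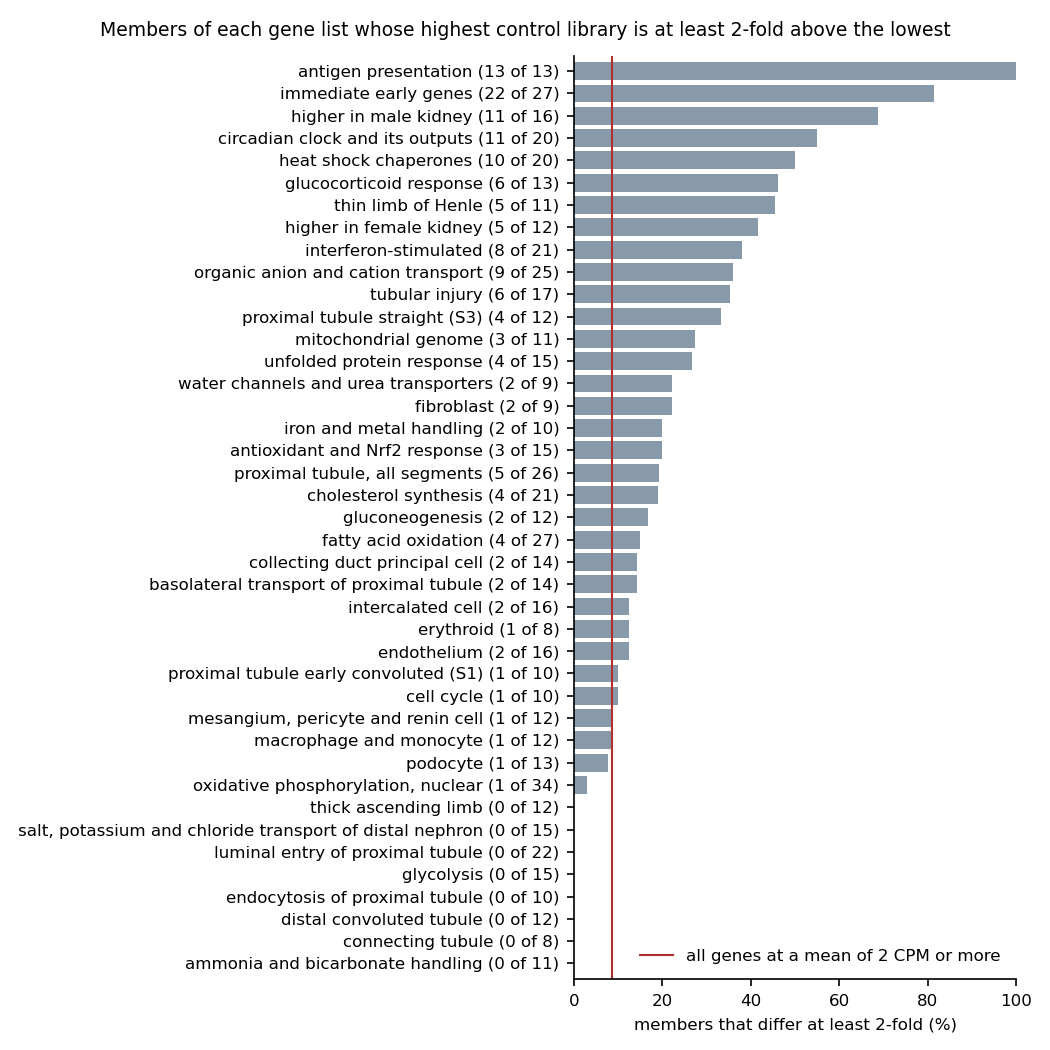
Share of the tested members of each gene list whose highest control library is at least 2-fold above the lowest in CPM, with the counts in brackets and a line at the 8.49% of all tested genes. Antigen presentation, immediate early, male, clock and heat shock lists lie far to the right, and 8 lists of tubule transport and metabolism have no such member.

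Control 3 was set apart by immediate early and heat shock genes. Immediate early genes code mostly for transcription factors and feedback regulators that are transcribed within minutes of a stimulus, without new protein synthesis. Of the 27 tested, control 3 was at least 2-fold above both others in 19, against 0.802% of all genes. Egr1, a zinc finger transcription factor, stood at 38.7, 22.3 and 437 CPM. Atf3, a stress-induced transcription factor, stood at 2.167, 1.73 and 32.1 CPM, and Nr4a1, an orphan nuclear receptor, at 11.6, 11.7 and 82.8 CPM. Control 3 alone was high in these genes. Controls 1 and 2 were close in Nr4a1, while control 1 was above control 2 in Egr1.

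Feedback regulators were also highest in control 3. Dusp1, a phosphatase of MAP kinases, stood at 154, 95.9 and 415 CPM, and Gadd45g, a growth arrest gene, at 45.2, 27.3 and 260.3 CPM. The AP-1 subunits Jun and Junb stood at 51.4, 63.4 and 269.8 CPM and at 43.5, 39.7 and 161 CPM. Cyr61, a secreted matricellular protein, stood at 58.3, 64.0 and 153 CPM, while its relative Ctgf was even at 118, 91.4 and 111 CPM. Without control 3, 2 immediate early genes differed by 2-fold, and without control 2 there were 23.

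Heat shock chaperones were highest in control 3 in 17 of 20 members, where 28.2% of all tested genes are, and lowest in control 2 in 17, where 36.1% are. Hspa1a and Hspa1b, the inducible chaperones of the HSP70 family, stood at 59.8, 14.0 and 788 CPM and at 142, 46.6 and 1238 CPM. Their coding sequences are nearly the same, so the split between them is uncertain, and their sum was 202, 60.6 and 2026 CPM. The 3 libraries thus lay in 3 steps. Constitutive members differed less: Hspa8 stood at 2651, 2596 and 3856 CPM and Hspd1, the mitochondrial chaperonin, at 805, 627 and 944 CPM. Hsp90aa1 and Dnaja1, an HSP90 chaperone and an HSP70 partner, stood at 811, 444 and 1256 CPM and at 610.4, 378 and 1050.2 CPM. The count past 2-fold was 10 of 20, 10 without control 1, 5 without control 2 and 2 without control 3.

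Promoter sequence is shown for 5 immediate early genes apart in control 3, and for the Hspa1a and Hspa1b pair, chosen after its values were seen. The 5 are the most abundant of those that have an entry and lie outside the deposited gene, after an exclusion by position. That exclusion is given with the data processing. These sequences are shown because the members were high together in 1 library. Each is the 200 bases from 250 to 51 before the RefSeq start on GRCm38.p6, 5′ to 3′ on the gene's own strand, with capitals for a match to the heat shock element GAANNTTC, the cyclic AMP response element TGACGTCA, the AP-1 element TGANTCA or the CArG box, searched on both strands, where no matches overlapped. Dusp1 is at chr17:26508523-26508722 (minus strand), Jun at chr4:95052273-95052472 (minus), Gadd45g at chr13:51846425-51846624 (plus), Cyr61 (Ccn1 in RefSeq) at chr3:145650036-145650235 (minus), Junb at chr8:84978799-84978998 (minus), Hspa1a at chr17:34972207-34972406 (minus) and Hspa1b at chr17:34959289-34959488 (minus).
Dusp1: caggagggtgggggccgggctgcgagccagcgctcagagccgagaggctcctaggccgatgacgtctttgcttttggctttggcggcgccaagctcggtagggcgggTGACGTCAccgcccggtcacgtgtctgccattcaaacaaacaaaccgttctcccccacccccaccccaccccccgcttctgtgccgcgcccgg
Jun: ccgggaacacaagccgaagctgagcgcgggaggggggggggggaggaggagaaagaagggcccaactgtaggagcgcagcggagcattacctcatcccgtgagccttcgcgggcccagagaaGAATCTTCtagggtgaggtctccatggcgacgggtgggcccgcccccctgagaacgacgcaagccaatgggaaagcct
Gadd45g: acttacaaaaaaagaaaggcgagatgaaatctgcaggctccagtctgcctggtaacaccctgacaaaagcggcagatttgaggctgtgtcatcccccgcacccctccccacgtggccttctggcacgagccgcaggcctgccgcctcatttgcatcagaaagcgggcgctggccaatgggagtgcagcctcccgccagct
Cyr61: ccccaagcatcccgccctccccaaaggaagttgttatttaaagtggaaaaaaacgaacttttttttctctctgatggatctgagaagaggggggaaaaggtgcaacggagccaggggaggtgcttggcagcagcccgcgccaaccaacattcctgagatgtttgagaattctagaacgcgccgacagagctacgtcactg
Junb: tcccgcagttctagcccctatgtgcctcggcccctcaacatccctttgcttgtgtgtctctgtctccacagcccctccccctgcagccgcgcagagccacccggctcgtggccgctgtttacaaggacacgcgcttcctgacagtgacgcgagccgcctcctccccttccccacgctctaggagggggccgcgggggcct
Hspa1a: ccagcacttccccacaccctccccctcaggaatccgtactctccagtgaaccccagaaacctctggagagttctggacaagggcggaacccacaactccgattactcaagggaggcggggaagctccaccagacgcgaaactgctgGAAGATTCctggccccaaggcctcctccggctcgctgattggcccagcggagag
Hspa1b: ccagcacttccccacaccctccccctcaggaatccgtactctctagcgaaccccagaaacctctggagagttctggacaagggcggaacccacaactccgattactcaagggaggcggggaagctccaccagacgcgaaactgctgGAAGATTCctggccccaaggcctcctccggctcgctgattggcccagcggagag

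Dusp1 held 1 cyclic AMP response element, 143 to 136 bases before the start, and Jun held 1 heat shock element, 128 to 121 bases before it. Hspa1a and Hspa1b each held 1 heat shock element at the same place, 104 to 97 bases before the start, and their windows were identical at 198 of 200 bases. Gadd45g, Cyr61 and Junb held no match in these 200 bases. Over windows of the same length in 32851 RefSeq promoters, 5.17% held the heat shock element, 0.828% the cyclic AMP response element, 5.57% the AP-1 element and 1.16% the CArG box. A match is a description of letters and does not show that a factor binds.

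Several genes outside these lists were high in control 3 as well. Cish, a feedback inhibitor of cytokine receptors, stood at 24.6, 19.4 and 319 CPM, and Irs2, an adaptor of the insulin receptor, at 36.7, 30.8 and 293 CPM. Kcnj2, an inward rectifier potassium channel, stood at 3.07, 4.88 and 58.9 CPM. In each, control 3 alone was high. Other genes were low in control 3. Gfra1, a receptor for GDNF, stood at 27.6, 30.8 and 5.06 CPM, Aldh1a3, a maker of retinoic acid, at 28.6, 21.9 and 4.36 CPM, and G0s2, an inhibitor of fat breakdown, at 66.3, 58.7 and 16.2 CPM. Of genes of named kinds at a mean of 10 CPM or more, 61 were apart above and 17 apart below in this library.

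Control 2 was set apart by genes that differ between the sexes in mouse kidney. Of 16 genes listed as higher in males, control 2 was the lowest library in 13, where 36.1% of all tested genes are. In 6 of them it was at least 2-fold below both others, against 0.975% of all genes. Cndp2, a dipeptidase, stood at 2372, 417 and 2009 CPM, and Odc1, the ornithine decarboxylase of polyamine synthesis, at 1297, 300.0 and 1436 CPM. Acsm3 stood at 1426, 134 and 952 CPM, and Slco1a1, an organic anion carrier, at 594, 68.6 and 481 CPM. Cyp4b1 was less uneven at 4845, 2166 and 4252 CPM, as was Cyp2e1 at 1738, 1235 and 1724 CPM.

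In 2 members control 2 was the highest library. Slc7a12, an amino acid transporter of the straight proximal tubule, stood at 2.23, 65.5 and 2.96 CPM. It was the only member of the male list 2-fold above both others in control 2. Whether it is higher in males was not tested here. Cyp2d9, a cytochrome P450, stood at 225, 346 and 217 CPM. Genes listed as higher in female kidney included Cyp4a14, given above, and Prlr, the prolactin receptor, at 22.0, 94.9 and 15.3 CPM. Both were highest in control 2. Control 2 was the highest library in 8 of these 12 genes, against 38.3% of all tested genes, and 2-fold above both others in 3, against 1.25%. The abundant Napsa, an aspartic protease, stood at 1258.5, 1823 and 1582 CPM, also highest in control 2, but Slc7a13 stood at 820, 742 and 1107 CPM with control 2 the lowest. The Y-linked levels given above did not set control 2 apart. Without control 2, 0 of the 16 genes of the male list differed by 2-fold, where 3.1% of all tested genes did. The count was 7 without control 1 and 11 without control 3, where 5.29% and 4.9% of all tested genes did.

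Collecting duct and podocyte markers were also mostly highest in control 2. It was the highest library in 14 of 14 principal cell, 15 of 16 intercalated cell, 12 of 13 podocyte and 9 of 9 tested water and urea transport genes, where 38.3% of all tested genes are. It was also highest in 9 of 12 thick ascending limb markers and 12 of 15 distal salt transport genes. Nearer the 38.3% were 7 of 12 distal convoluted tubule, 5 of 8 connecting tubule and 3 of 5 parietal epithelium markers. In the first 4 lists the steps were small, with median ratios of highest to lowest of 1.43, 1.41, 1.41 and 1.46. Aqp4 was the largest, at 55.0, 196 and 64.9 CPM. Nuclear genes of oxidative phosphorylation lay the other way, lowest in control 2 in 32 of 34, where 36.1% of all tested genes are. Their steps were small, with a median ratio of 1.24 against 1.29 over all tested genes. Atp5b, the catalytic subunit of the ATP synthase, stood at 2791, 2373 and 2488 FPKM. Scaling by library totals left 27 of the 34 lowest in control 2, and 14 of 14, 15 of 16 and 12 of 13 of the cell markers highest. That scaling also raised control 2 in general: it was highest in 6803 and lowest in 2919 of all 12723 tested genes. The unfolded protein response list was lowest in control 2 in 13 of 15 members, where 36.1% of all tested genes are. Its members Calr and Hspa5, chaperones of the endoplasmic reticulum, stood at 434, 285 and 350.0 FPKM and at 398, 275 and 393 FPKM. Whether the sex-biased, distal and mitochondrial differences of control 2 have a common source was not tested.

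Interferon-stimulated genes were highest in control 2 in 19 of 21 tested members, against 38.3% of all tested genes. In 6 of them control 2 was 2-fold above both others, against 1.25%. The immunity GTPases Igtp and Iigp1 stood at 17.3, 91.3 and 24.9 CPM and at 10.96, 87.9 and 21.2 CPM, and Tgtp1, of the same family, at 5.66, 70.4 and 10.8 CPM. Members of the type I response such as Bst2, a restraint on virus release, stood at 16.7, 23.3 and 14.1 CPM. Without control 2, none of the 21 differed by 2-fold, where 3.1% of all tested genes did, against 7 without either other library.

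Antigen presentation genes split in control 2. B2m, the light chain of class I molecules, stood at 291, 545 and 255.5 CPM, and H2-D1, a class I heavy chain, at 343, 632 and 292 CPM, so both were highest there. H2-K1, another class I heavy chain, stood at 198, 7.98 and 271 CPM, and the class I-like genes H2-T23 and H2-T22 at 91.5, 0.762 and 94.6 CPM and at 102, 8.94 and 87.2 CPM. The sum over 30 class I symbols was 879, 827 and 879 CPM, a ratio of 1.06 between highest and lowest. H2-Aa, a class II alpha chain, stood at 40.9, 6.40 and 93.8 CPM, and H2-Ab1, of the same class, at 51.9, 8.59 and 125 CPM. H2-Eb1, the other class II gene of the list, was not apart in control 2. The 3 class II genes together stood at 138, 70.4 and 329 CPM. Their chaperone Cd74 was highest in control 2 at 166, 367 and 205 CPM. Class I H2 genes are close copies among which the authors' counting could split reads, so single class I members are uncertain. The sum over the 3 class II genes still differed by 4.67-fold. Whether counting affected single class II genes was not tested. Without control 2, 3 of the 13 differed by 2-fold.

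These H2 genes sit together on chromosome 17. Between 30 and 35 Mb, 15 of 99 tested genes were apart in control 2 (15.2%), and between 35 and 40 Mb 8 of 55 (14.5%), in both directions, against 2.22% of all tested genes. On chromosome 3 between 140 and 145 Mb, 5 of 16 were apart, all above, and all are guanylate-binding protein genes that interferon induces. For control 3, 7 of 19 genes on chromosome 6 between 65 and 70 Mb were apart, all variable segments of the kappa light chain, against 1.56% of all tested genes.

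Clock genes also differed, with 11 of 20 past 2-fold. Dbp, an output of the clock, stood at 21.4, 122 and 53.1 CPM. The repressors Per1 and Nr1d1 stood at 48.8, 93.3 and 118 CPM and at 73.1, 115.5 and 47.3 CPM. Arntl, which drives both and was chosen after its values were seen, ran opposite to Dbp at 20.5, 3.15 and 10.9 CPM. Tef, a relative of Dbp, stood at 299, 524 and 329 CPM. The count was 6 without control 1, 5 without control 2 and 8 without control 3. Among glucocorticoid-responsive genes, Zbtb16, a transcriptional repressor, stood at 11.1, 73.7 and 4.18 CPM and Fkbp5, a co-chaperone of the receptor, at 188, 313 and 148 CPM. Control 2 was the highest for both, but Errfi1, an inhibitor of the EGF receptor, stood at 837, 649 and 1482 CPM with control 3 the highest.

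Control 1 differed from the others in the fewest genes. Of genes of named kinds at a mean of 10 CPM or more, 8 were apart above and 26 below. Ugt1a7c, a glucuronosyltransferase, stood at 415, 67.8 and 125 CPM, and Cox7a2, a subunit of complex IV, at 115, 27.2 and 33.6 CPM. Serpine2, a protease inhibitor, stood at 28.5, 12.8 and 9.997 CPM. The genes low in control 1 included enzymes of amino and hydroxy acid breakdown: Hpd, of tyrosine catabolism, stood at 47.9, 468 and 158 CPM, and Hao2, a hydroxyacid oxidase, at 181, 960.1 and 662 CPM. Hpd was also apart in control 2, above both others. Col5a2, a fibrillar collagen chain, stood at 3.91, 27.6 and 47.2 CPM. Cfd stood at 22.3, 1.88 and 3.08 CPM, in the same order as Adipoq.

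Part of the largest differences lay in genes with near-identical copies. Rps2, a protein of the small ribosomal subunit, stood at 592, 4.12 and 273 CPM, but the sum over Rps2 and its copies (9 symbols) was 638, 486 and 539 CPM, a ratio of 1.31. Its copies Rps2-ps13 and Rps2-ps10 stood at 34.4, 428 and 258 CPM and at 7.77, 53.0 and 8.31 CPM. Summing did not even out Rpl29 of the large subunit, at 75.9, 68.4 and 4.13 CPM with its copies, nor Rps18, at 97.5, 16.6 and 151 CPM. The mitochondrial genes mt-Co2, mt-Nd4l and mt-Nd3 were also uneven, unlike the other 8 tested on that genome: mt-Co2 stood at 130, 744 and 32.3 CPM, mt-Nd4l at 6.38, 41.5 and 1.16 CPM and mt-Nd3 at 6.08, 38.1 and 0.9299 CPM. Ttr, the thyroxine carrier given above in FPKM, had the largest ratio of all named genes, at 158, 0.305 and 93.9 CPM.

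**Figure D5:**
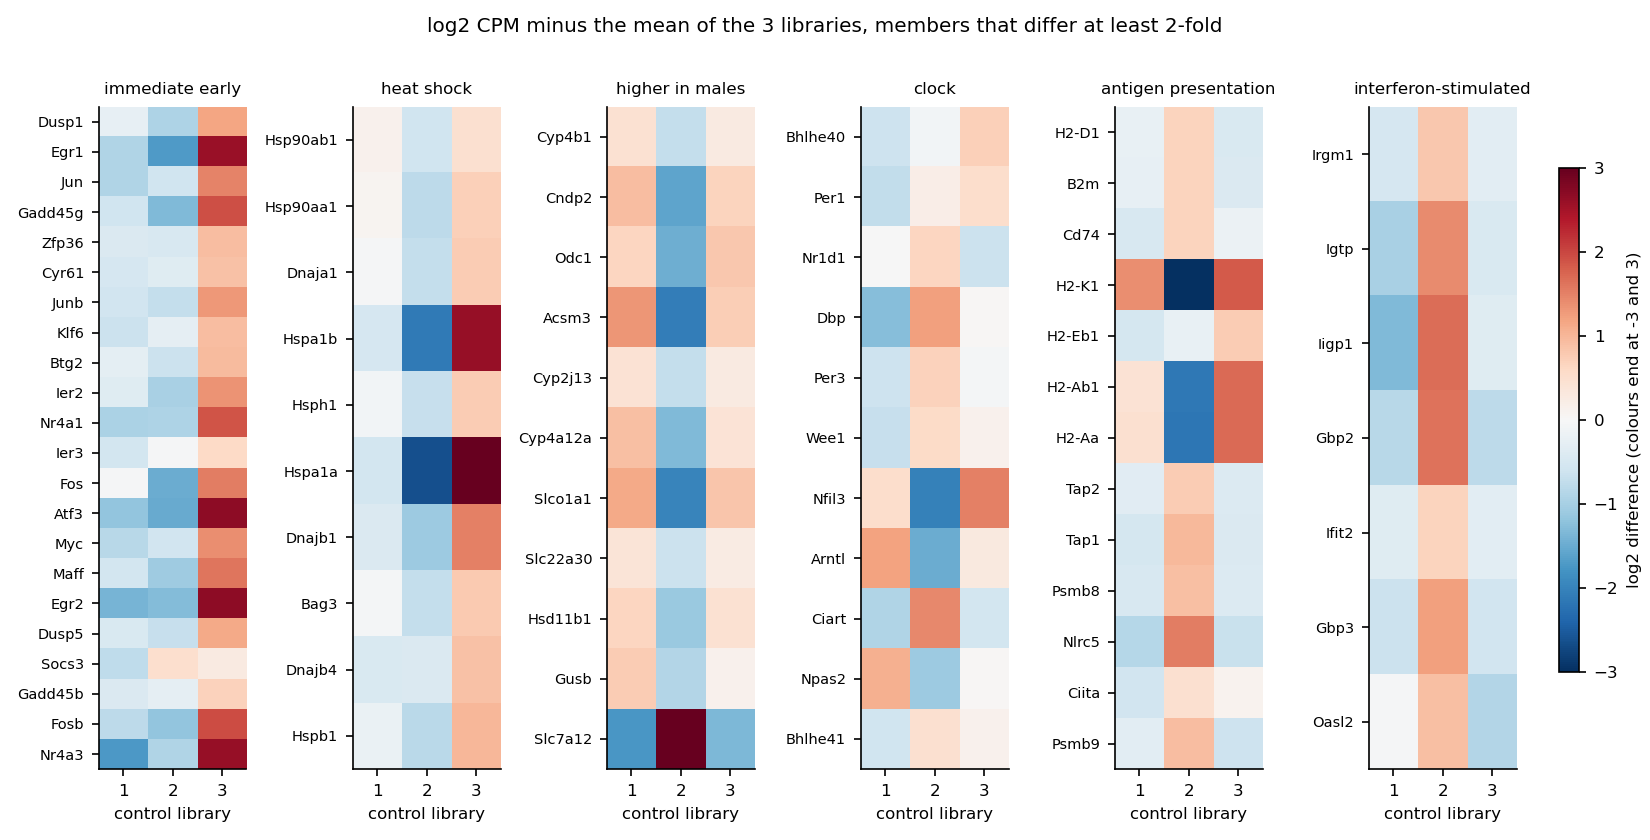
Difference of log2 CPM from the mean of the 3 libraries for members of 6 gene lists that differ at least 2-fold, 1 row per gene and 1 column per control library, red above and blue below the mean. Control 3 is red throughout nearly all immediate early and heat shock rows, and control 2 is blue in all male rows but Slc7a12 and red in all interferon rows.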

How the data were processed

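Whole-kidney RNA was sequenced in 6 libraries, of which the 3 controls were analysed. The deposited table holds estimated counts, not normalized, and FPKM for 128603 transcripts (51905 Ensembl gene IDs). The authors' FPKM are per exonic transcript length: the length implied by counts and FPKM was within 2% of GENCODE M21 for 95.2% of the transcripts checked. Per the submitters' processing notes, HISAT2 2.0.1, Cuffdiff 2.2.1, cutadapt 1.9.1, bcl2fastq 2.17.1.14 and FastQC 0.10.1 were used on GRCm38; no source used here says which program counted or whether strand was used, so reads of overlapping genes cannot be told apart.

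Sums were taken per symbol, of which 97 hold more than 1 gene ID, and counts were rounded. Of the gene sums, 87.8% lay within 0.01 of a whole number. Counts were scaled by TMM over the 3 controls (factors 0.971, 1.058 and 0.9733). Ratios between libraries used genes at a mean of 2 CPM or more, with a prior of 0.5 counts. The dispersion is that of edgeR 4.0.16 (R 4.3.3) with an intercept only and its default filter (minimum count 10). Other steps used Python 3.11.15 with pandas 2.3.3, numpy 2.4.6 and scipy 1.17.1. No test was made, because there is 1 group. The code was tested on simulated data. Limits from 3 counts reflect counting error alone, because without molecular identifiers a read is not an independent molecule.

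The gene lists, members and rules were chosen with earlier results of these data known. Genes were named by rule: the 30 symbols of highest mean FPKM, the 25 highest Slc symbols, up to 5 abundant and up to 4 uneven members per list, up to 10 apart genes per library and direction at a mean of 10 CPM or more, without symbols of predicted kinds, and list genes at 0. Genes named beside these (the partners in a ratio, Malat1, Arntl, and Cdh16 and Ccnb1 by label) are given as context. Promoters came from the RefSeq table for GRCm38.p6. Genes on chromosome 18 were left out of the promoter choice. Of 19 immediate early genes apart in control 3, 18 lie outside chromosome 18 and 16 of these had an entry. The gene left out was Egr1, at 38.7, 22.3 and 437 CPM, so its promoter was not searched. Zfp36 was passed over because its window lies inside the deposited gene. The 5 shown are thus the most abundant of the genes left, not of all 19. Alternatives were other scalings, including the size factors of DESeq2 1.42.0, FPKM with pseudocounts, other filters and folds, sums per gene ID, and each library left out. Those without Kap, without ribosomal protein genes and pseudogenes, and without the middle of chromosome 17 were chosen after seeing the data. A few genes that these rules name are not reported here.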

Additional observations from a re-analysis of the deposited data

How the results depend on the processing

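No paired analysis was possible because there is 1 group and no test, so the replicate numbers pair nothing. The count of genes past 2-fold (1080) became 606 on FPKM with a pseudocount of 1, 459 at a mean of 10 CPM, 2310 at 0.5 CPM, 8713 without a filter, 3217 at 1.5-fold and 367 at 3-fold, and ran from 389 to 676 with 1 library left out. With 2 libraries left no gene can be apart, so those counts were not made. Apart above and below, at a mean of 10 CPM there were 11 and 27 genes for control 1, 73 and 67 for control 2, and 65 and 26 for control 3. At 0.5 CPM there were 116 and 233, 334 and 248, and 217 and 311, and without a filter 1303 and 1144, 2067 and 904, and 1332 and 1263. At 1.5-fold there were 180 and 307, 572 and 377, and 265 and 307, and at 3-fold 19 and 22, 50 and 64, and 46 and 33. With FPKM and a pseudocount of 1, control 1 had 27 and 35, control 2 had 74 below and control 3 had 29 below. Among protein-coding genes outside chromosome 17, 30 to 40 Mb, control 1 had 27 above. Of 58 named calls of an apart gene, 58 held under both other scalings, 54 with a pseudocount of 1 on FPKM and 51 at 3-fold.

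The share of the first 10 genes (13.5%) was 7.85% of counts, 9.69% among nuclear protein-coding genes and 10.6% without Kap. As shares of counts, the proximal tubule list was 6.05%, the thick ascending limb 0.834% and the mitochondrial genome 4.44%; counts weight long transcripts more. The coefficient of variation was 0.248 without a filter and ran from 0.180 to 0.231 with 1 library left out. Members past 2-fold with 1 library left out ran from 2 to 23 for immediate early genes, from 2 to 10 for heat shock chaperones, from 0 to 11 for the male list and from 3 to 10 for antigen presentation. At 1.5-fold and 3-fold the heat shock counts were 18 and 4, and at 3-fold the antigen presentation count was 4. Library totals moved the median gene by 0.09 (log2) in control 2. With 3 libraries of 1 group, none of these differences can be tied to a condition, and low genes rest on few counts.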

Other observations

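Genes of the cell cycle were rare in these kidneys. The 20 listed genes summed to 58.6, 68.3 and 53.0 FPKM in the control libraries, most of it from 2 replication genes, Pcna, the sliding clamp of DNA polymerase, at 29.3, 34.1 and 30.1 FPKM and Mcm7, a helicase subunit, at 11.4, 11.3 and 8.71 FPKM. Of the 20, 6 were at 1 FPKM or more in all 3 libraries. Among injury markers of the tubule, Spp1, osteopontin, was the most abundant at 354, 576.5 and 391 FPKM, and Cp, ceruloplasmin, stood at 31.6, 113 and 46.0 CPM with control 2 the highest. Of the 17 tested injury genes, 6 differed by 2-fold, where 8.49% of all tested genes did. The count was 5 without control 1, 3 without control 2 and 2 without control 3.

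Some metal-binding and oxidative stress genes were uneven between the libraries. The metallothionein Mt1 stood at 85.04, 99.6 and 59.2 FPKM and Hmox1, heme oxygenase, at 73.3, 26.2 and 45.9 CPM. Gsta2, a glutathione transferase, stood at 108, 271 and 118 CPM, with control 2 the highest.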
